A study of Homo sapiens with 4 samples.

Results

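A set of 8 genes of cholesterol uptake and handling was examined in UBXN1-knockdown hepatocellular carcinoma cells: NPC1, NPC2, SORT1, LIPA, SCARB1, STARD3, MYLIP and NR1H3. They are 8 of the 61541 genes in the deposited table, and all 8 passed the filter on low counts. The genes were chosen by name, with their fold changes between shUBXN1 and shCon in these same libraries already known. Their levels and fold changes are therefore given as a description, with no p-value.

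RNA-seq was performed on MHCC97H, a human hepatocellular carcinoma cell line, in 4 libraries. The 2 shCon libraries came from cells with a control shRNA and the 2 shUBXN1 libraries from cells with an shRNA against UBXN1, a UBX domain protein that binds ubiquitin. No other allele or agent is given for either group. By the study's methods the shRNAs were carried by lentivirus in pLKO.1, so all 4 libraries come from cells that carry a vector, whereas the series' design text speaks of transfection. Which UBXN1 shRNA was used for the sequenced cells is not given in the sources used here, and off-target effects of an shRNA cannot be told apart from the knockdown. The labels do not say that the replicates came from separate cultures, so the p-values below measure only the spread between these libraries.

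Cholesterol reaches liver cells mainly as cholesteryl ester inside lipoproteins. LDL is taken up at the surface and carried to the lysosome, where acid lipase (LIPA) frees the cholesterol, the soluble protein NPC2 takes it up and hands it to NPC1, and NPC1 moves it out through the lysosomal membrane. HDL instead gives up its cholesteryl ester at the cell surface through SCARB1, without uptake of the whole particle. The nuclear receptor LXRα (NR1H3) senses oxysterols and switches on genes of efflux together with MYLIP, a ubiquitin ligase that sends lipoprotein receptors to degradation, while SREBP2 switches on genes of cholesterol uptake and synthesis when sterol runs low.

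Library totals were 23373700 to 27380508 counts. UBXN1 itself, at 67.1 and 77.3 CPM (counts scaled to library size with TMM factors) in shCon, stood at 16.8 and 18.5 CPM in shUBXN1, which is 0.2445 of the shCon mean (log2 fold change -2.03 ± 0.10 (SE), adjusted p = 9.98e-10 by edgeR). All 11 hepatocyte lineage markers were detected, with summed levels of 4440 and 4620 CPM in shCon and 3490 and 4090 CPM in shUBXN1. Most of each sum was the keratin genes KRT8 (3354 and 3467, then 2329 and 2715 CPM) and KRT18 (895.1 and 949.1, then 1045 and 1247 CPM). ALB stood at only 17.2 to 18.0 CPM in shCon, and TTR at 0.13 to 1.45 CPM and APOA1 at 0.44 to 0.94 CPM over all libraries. Of the 11 hepatocyte lineage markers, 2 were higher and 7 lower at an adjusted p under 0.05. The 3 leukocyte markers were CD3E, at 0 in every library, PTPRC, at 0 to 0.171 CPM, and CD68, at 70.5 to 88.3 CPM. Markers of other cell types moved with the groups as well. The 3 endothelial markers summed to 48.1 and 49.2 CPM in shCon and 91.2 and 98.4 CPM in shUBXN1, mostly through KDR (14.6 and 15.8, then 48.2 and 56.6 CPM), while CDH5 was at 0 to 0.255 CPM. The 4 biliary markers summed to 376 and 374 CPM in shCon and 247 and 268 CPM in shUBXN1, with KRT7 higher (log2 fold change 1.15) and KRT19 lower (-1.25). The 5 fibroblast markers summed to 33.1 and 33.2 CPM in shCon and 17.1 and 19.7 CPM in shUBXN1, mostly LUM (-1.06), with COL1A1 higher at 0.17 to 2.52 CPM. The mitochondrial genome took 5.28 and 5.59% of counts in shCon and 7.43 and 8.27% in shUBXN1. The part of these differences in the values below was not tested. In bulk RNA, fewer cells that express a gene and less RNA of it per cell cannot be told apart.

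NPC1, NPC2, SORT1 and LIPA were higher in both shUBXN1 libraries than in either shCon library. The other 4 members were lower in both, namely SCARB1, STARD3, MYLIP and NR1H3. Among all 16863 genes tested, 39.4% had groups that did not overlap with shUBXN1 higher and 38.6% with shUBXN1 lower. By the thresholds of the study's methods (at least 2-fold, with p under 0.05 before adjustment), 2 members were called higher (NPC1 and SORT1) and 0 lower, where 11.8% of all genes were called higher and 6.09% lower. At an adjusted p under 0.05, 4 members were called higher and 3 lower (all but SCARB1), where 28.0% of all genes were called higher and 28.2% lower. Nothing is read from these counts, since the same contrast chose the members.

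Upstream sequences are shown for NPC1 and SORT1, the members with the largest differences on the higher side, and for MYLIP and NR1H3, those with the largest on the lower side, as part of the windows in which motifs were searched. They are the 100 bases (GRCh38.p14, in the direction of the gene) before the RefSeq start that coincides with the start of the gene in the GENCODE annotation, for NPC1 at chr18:23586507-23586606 on the minus strand, SORT1 at chr1:109397919-109398018 on the minus strand, MYLIP at chr6:16128986-16129085 on the plus strand and NR1H3 at chr11:47248200-47248299 on the plus strand. Capitals mark GC boxes, the letters GGGCGG on either strand, a motif that was added after the data were seen.
NPC1: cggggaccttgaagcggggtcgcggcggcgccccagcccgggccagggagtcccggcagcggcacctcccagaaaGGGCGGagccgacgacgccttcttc
SORT1: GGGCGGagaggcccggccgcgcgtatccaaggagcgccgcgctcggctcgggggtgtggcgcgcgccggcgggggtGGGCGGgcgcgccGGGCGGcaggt
MYLIP: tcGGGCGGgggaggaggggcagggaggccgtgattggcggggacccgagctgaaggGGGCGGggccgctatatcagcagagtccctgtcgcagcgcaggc
NR1H3: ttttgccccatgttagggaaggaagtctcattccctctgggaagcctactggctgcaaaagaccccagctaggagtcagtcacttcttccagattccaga
NPC1 held 1 GC box in this stretch, SORT1 3, MYLIP 2 and NR1H3 0. Other RefSeq starts differ: the second start of SORT1 held 0 in its 100 bases, and of the other 3 starts of NR1H3 1 held 1 and 2 held 0. RefSeq start windows (250 bases before and 50 after the start) were found for 7 of the 8 members, 14 windows in all. GC boxes were in 10 of the 14 windows and in 45.0% of 35116 windows of all genes. Several members had more than 1 window, so the 14 are not independent. Nothing is read from this share. The letters CACGTG, an E-box read by several basic helix-loop-helix factors, were in 0 of the 14 windows and in 7.26% of all windows. Its longer form TCACGTGA, known from lysosomal genes, was in 0 of 14 and 0.98% of all, and TCACCCCAC, a sterol element, was in 0 of 14 and 0.43% of all. Both strands were searched, and TCACGTGA contains CACGTG. An absent motif says only that these letters are not in these windows.

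NPC1 (ENSG00000141458; GRCh38 by the GENCODE annotation, chromosome 18, 23506184 to 23586506, minus strand) encodes the membrane protein that exports cholesterol from the lysosome. It stood at 184.1 and 177.8 CPM in shCon and at 475.2 and 494.0 CPM in shUBXN1. Both shUBXN1 libraries lay far above both shCon libraries, and the replicates of each group lay close together. The mean went from 181.0 ± 4.44 CPM to 484.6 ± 13.4 CPM (SD, n = 2 each), a 2.68-fold higher level with a log2 fold change of 1.42 ± 0.08 (SE). Its 4178 to 11759 counts per library leave little counting error.

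NPC2 (chromosome 14, 74476192 to 74494177, minus strand), the soluble lysosomal partner that hands cholesterol to NPC1, showed 63.4 and 64.3 CPM in shCon and 105.7 and 121.3 CPM in shUBXN1. The groups were again apart, with a wider spread in shUBXN1. The log2 fold change was 0.83 ± 0.08 (SE), a 1.78-fold higher mean. LIPA (chromosome 10, 89213569 to 89414557, minus strand), the acid lipase that frees cholesterol from its esters, was at 48.5 and 49.3 CPM in shCon and at 71.2 and 77.2 CPM in shUBXN1. Its difference was the smallest of the 4 members on the higher side, with a log2 fold change of 0.60 ± 0.08 (SE). The 3 genes that act in turn on LDL cholesterol in the lysosome were thus all higher in shUBXN1, by 1.52-fold for LIPA, 1.78-fold for NPC2 and 2.68-fold for NPC1.

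SORT1 (chromosome 1, 109309568 to 109397918, minus strand) encodes sortilin, a sorting receptor of the Golgi and endosomes that carries cargo to the lysosome and is known in the liver for binding apolipoprotein B. It had 45.6 and 39.6 CPM in shCon and 122.3 and 133.8 CPM in shUBXN1. Neither shCon library came near the lower shUBXN1 library. The mean was 42.6 ± 4.23 CPM against 128.1 ± 8.14 CPM (SD, n = 2 each), a 3.01-fold higher level with a log2 fold change of 1.59 ± 0.09 (SE). This was the largest difference among the 8 members.

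SCARB1 (chromosome 12, 124776856 to 124882668, minus strand), the HDL receptor, had 443.6 and 455.2 CPM in shCon and 408.8 and 413.3 CPM in shUBXN1. The shUBXN1 libraries were the lower pair by a narrow margin, and the ratio of the means was 0.915. The log2 fold change of -0.13 ± 0.07 (SE) ranged from -0.18 to -0.04 over the 13 alternative fits. STARD3 (chromosome 17, 39637090 to 39664201, plus strand), a late endosomal membrane protein that binds cholesterol and tethers the endosome to the endoplasmic reticulum, had 37.9 and 45.8 CPM in shCon and 29.8 and 31.6 CPM in shUBXN1. Here the shCon libraries differed more from each other than the shUBXN1 libraries did, and the log2 fold change was -0.45 ± 0.10 (SE). It was -0.58 without the first shCon library and -0.32 without the second.

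The 2 members that restrain cholesterol uptake were also on the lower side. NR1H3 (chromosome 11, 47248300 to 47269033, plus strand), which encodes LXRα, had 17.9 and 18.1 CPM in shCon and 10.3 and 10.8 CPM in shUBXN1, a log2 fold change of -0.77 ± 0.12 (SE). MYLIP (chromosome 6, 16129086 to 16148248, plus strand), the ubiquitin ligase of lipoprotein receptors and itself an LXR target, had 7.69 and 6.56 CPM in shCon and 4.24 and 4.61 CPM in shUBXN1. Its log2 fold change of -0.69 ± 0.19 (SE) carries the widest error of the 8, from 105 to 205 counts per library. Neither gene's groups overlapped, and the 2 NR1H3 replicates of each group were almost equal.

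**Figure D1:**
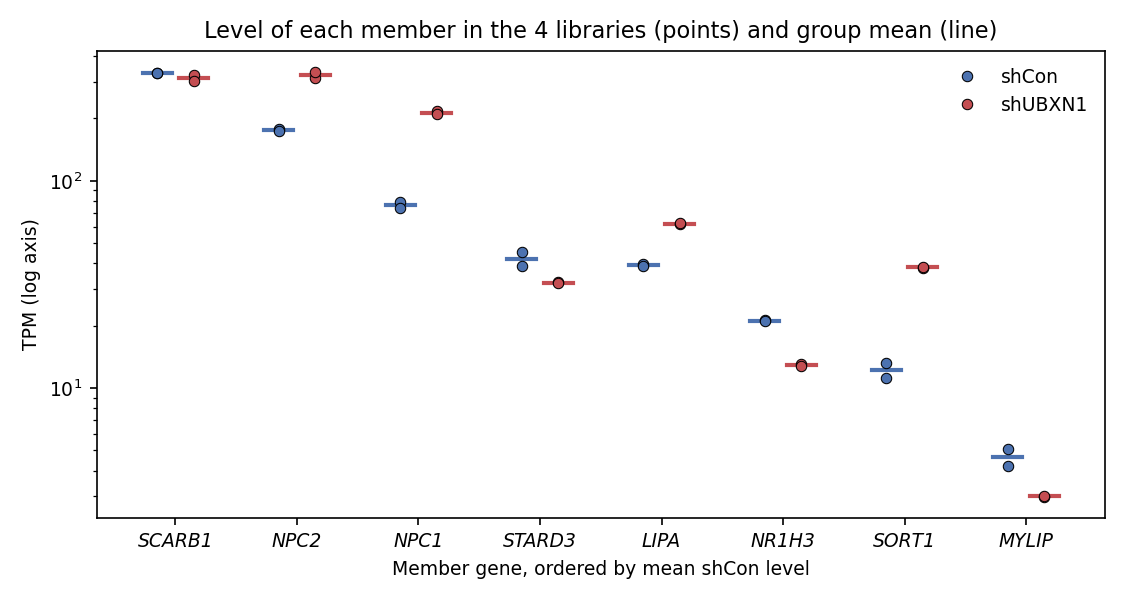
The plot gives the level of each member in TPM (log axis) in each of the 4 libraries, with points for libraries and a line for the group mean, shCon in blue and shUBXN1 in red. NPC1 sits at 73.8 to 78.7 TPM in shCon and 208.9 to 216.4 TPM in shUBXN1, and SORT1 moves from below NR1H3 to above STARD3.

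Levels can be set side by side between genes once they are divided by gene length, as TPM (the share of each gene in all length-scaled counts of a library). In shCon the order of mean levels was SCARB1 (329.9 TPM), NPC2 (175.6 TPM), NPC1 (76.3 TPM), STARD3 (42.2 TPM), LIPA (39.3 TPM), NR1H3 (21.2 TPM), SORT1 (12.2 TPM) and MYLIP (4.66 TPM). Only the neighbours STARD3 and LIPA had ranges that overlapped. Of the genes tested, 2.43% had a shCon level at or above that of SCARB1, 12.8% at or above NPC1 and 48.1% at or above SORT1.

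In shUBXN1 the order was NPC2 (324.7 TPM), SCARB1 (314.6 TPM), NPC1 (212.6 TPM), LIPA (62.1 TPM), SORT1 (38.2 TPM), STARD3 (32.2 TPM), NR1H3 (12.9 TPM) and MYLIP (3.01 TPM), and here the ranges of NPC2 and SCARB1 overlapped. SORT1 thus stood 2 places higher in the order and STARD3 2 places lower. The level of SCARB1 was 4.2 and 4.46 times that of NPC1 in the shCon libraries and 1.5 and 1.46 times in the shUBXN1 libraries. NPC1 had 0.445 and 0.423 of the TPM of its partner NPC2 in shCon, and 0.688 and 0.624 in shUBXN1. Against STARD3, the other late endosomal cholesterol protein, NPC1 was 2.03 and 1.62 times higher in shCon and 6.66 and 6.54 times higher in shUBXN1. The ratio of SORT1 to MYLIP was 2.60 and 2.65 in shCon and 12.7 in both shUBXN1 libraries.

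Parts of some member genes are shared with another gene, and whether the counting used strand is not given in the sources used here. On the opposite strand, RMC1 covers 6.38% of the exon bases of NPC1, ISCA2 covers 3.99% of those of NPC2 and ACP2 covers 4.17% of those of NR1H3. The largest such share, 7.52%, is that of SCARB1 with the unnamed gene ENSG00000287242, which held 3 to 12 counts per library (0.188 and 0.128 CPM in shCon, 0.485 and 0.427 CPM in shUBXN1) and did not pass the adjusted p (0.0669). On the same strand, MIR4709 covers 2.79% of NPC2 and was at 0 counts in every library. RMC1 (30.3 and 35.3 CPM in shCon, 33.5 and 36.4 in shUBXN1) and ISCA2 (13.0 and 12.3 CPM in shCon, 11.4 and 10.2 in shUBXN1) did not pass the adjusted p. ACP2, at 28.9 and 29.4 CPM in shCon and 30.7 and 38.1 CPM in shUBXN1, did not pass either (log2 fold change 0.24, adjusted p = 0.0663), and its sign is opposite to that of NR1H3. It passed in 5 of 13 alternatives, among them the replicate block (adjusted p = 0.0248) and without the first shUBXN1 library, where the log2 fold change was 0.38 (adjusted p = 0.000914), while without the second it was 0.06. Genes on the opposite strand, the interferon-induced IFIT2 and IFIT3 among them, cover 6.01% of LIPA. Both of these rose, IFIT2 from 5.51 and 5.02 to 9.94 and 10.5 CPM (adjusted p = 0.000168) and IFIT3 from 9.26 and 9.32 to 12.4 and 16.7 CPM (adjusted p = 0.0024). Without the second shUBXN1 library the log2 fold change of IFIT3 was 0.40, against 0.64 with it. The part of this overlap in the LIPA value was not tested. SORT1, STARD3 and MYLIP share no exon bases with another gene.

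**Figure D2:**
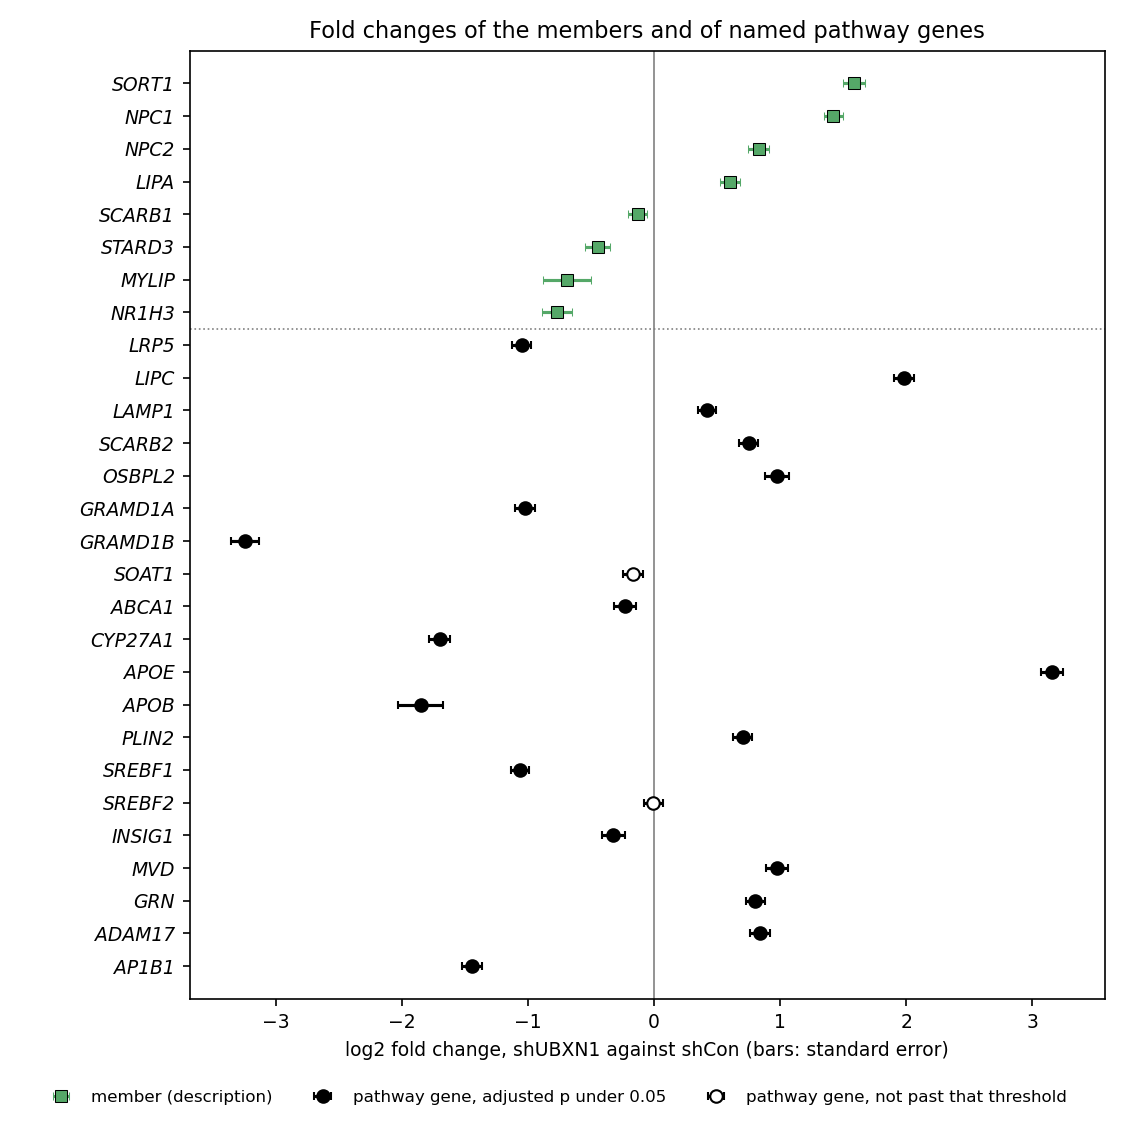
The plot gives the log2 fold change of shUBXN1 against shCon (x axis, bars show the standard error) for the 8 members (green squares, above the dotted line) and for named genes of the same pathways (circles, filled where the adjusted p was under 0.05). SORT1 and NPC1 lie furthest right among the members, at 1.59 and 1.42, while APOE at 3.16 and GRAMD1B at -3.24 mark the ends among the pathway genes.

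The wider pathway was read from 8 lists of 154 genes that leave out the members. Of these, 135 were tested, 45 (33.3%) rose, 39 (28.9%) fell and 51 did not pass an adjusted p of 0.05. By the same threshold 28.0% of all 16863 genes tested rose and 28.2% fell, the shares to set beside each list below. The median log2 fold change was 0.01 over the 135 genes and 0.02 over all genes tested. The remaining 19, among them LPL, OLR1 and NTS at 0 counts in every library, were too low to test.

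Of the 17 lipoprotein receptors, adaptors and lipases tested, 3 rose, 3 fell and 11 did not pass, with a median log2 fold change of 0.09. LIPC, hepatic lipase, rose from 23.4 CPM in both shCon libraries to 95.9 and 88.8 CPM (log2 fold change 1.98, adjusted p = 2.46e-10), and LRPAP1, a chaperone of the receptor family, rose by 0.38 on the log2 scale. LRP5, a Wnt co-receptor of the same family, fell from 311.9 and 316.9 to 151.2 and 152.5 CPM (log2 fold change -1.05, adjusted p = 3.22e-08).

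Of 22 genes tested for the turnover and recycling of lipoprotein receptors, 2 rose, 10 fell and 10 did not pass, with a median of -0.14. FURIN, a protease that cleaves secreted proproteins, fell from 73.4 and 79.1 to 29.8 and 29.9 CPM (log2 fold change -1.35, adjusted p = 7.23e-09). VPS29, a subunit of the retromer and retriever complexes, fell by 0.85, and CCDC93, a subunit of the CCC complex that works with retriever, rose by 0.42. RXRA, the partner receptor of LXR, rose by 0.21 (adjusted p = 0.0205), a call that was lost without either shCon library (adjusted p = 0.114 and 0.335) and with the GC trend removed (0.347).

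Around NPC1, of the 25 genes tested for lysosomal cholesterol egress and transfer at membrane contacts, 12 rose, 7 fell and 6 did not pass, with a median of 0.06. LAMP1, a lysosomal membrane protein, rose from 114.8 and 116.9 to 148.3 and 161.6 CPM, a log2 fold change of 0.42 beside 1.42 for NPC1. SCARB2, which carries glucocerebrosidase to the lysosome, rose by 0.75, and OSBPL2, an oxysterol-binding protein, rose by 0.98 on the log2 scale. The opposite direction was seen for the Aster proteins, which take accessible cholesterol from the plasma membrane to the endoplasmic reticulum. GRAMD1B fell from 71.3 and 70.6 to 6.59 and 8.42 CPM (log2 fold change -3.24 ± 0.11 (SE), adjusted p = 4.73e-11) and GRAMD1A from 83.8 and 91.5 to 44.7 and 41.5 CPM (log2 fold change -1.02, adjusted p = 1.08e-07).

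Around SORT1, of 23 members of the sortilin family, its ligands and its sorting partners, 9 rose, 5 fell and 9 did not pass, with a median of 0.16. GRN, which encodes progranulin, a sortilin ligand, rose from 273.2 and 280.3 to 462.6 and 503.4 CPM (log2 fold change 0.80, adjusted p = 8.60e-07). ADAM17, a sheddase of surface proteins, rose by 0.84 on the log2 scale. AP1B1, a subunit of the clathrin adaptor AP-1, fell from 93.7 and 102.2 to 35.5 and 36.7 CPM (log2 fold change -1.44). VPS29, already given above, belongs to this list as well.

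For esterification, efflux and oxysterols, 2 of 12 genes tested rose, 5 fell and 5 did not pass, with a median of -0.20. SOAT1, which re-esterifies cholesterol in the endoplasmic reticulum, did not pass (119.5 and 117.0 CPM in shCon, 98.6 and 112.2 CPM in shUBXN1, adjusted p = 0.0884). It did pass without the second shUBXN1 library (log2 fold change -0.28 against -0.17, adjusted p = 0.00117) and with the replicate block (adjusted p = 0.0456). CYP27A1, which makes 27-hydroxycholesterol, an oxysterol that activates LXR, fell from 71.1 and 77.1 to 23.2 and 22.4 CPM (log2 fold change -1.70). APOE, a lipoprotein component that binds receptors of uptake, rose from 13.3 and 12.3 to 118.2 and 109.7 CPM (log2 fold change 3.16 ± 0.09 (SE), adjusted p = 1.20e-11). APOB, the structural protein of LDL, fell from 16.7 and 12.2 CPM to 4.0 CPM in both shUBXN1 libraries (log2 fold change -1.85, and -0.93 with limma on log2(TPM + 1)). PLIN2, a coat protein of lipid droplets, rose by 0.70.

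Of 12 LXR target genes tested, 3 rose, 5 fell and 4 did not pass, with a median of -0.16. ABCA1, the exporter of cholesterol to apolipoprotein A-I, fell by 0.23 on the log2 scale (42.3 and 42.2 CPM in shCon, 38.8 and 33.3 CPM in shUBXN1, adjusted p = 0.0423). That call was lost in 8 of 13 alternatives, among them leaving out either shCon library or the second shUBXN1 library, without which the log2 fold change was -0.14; without the first it was -0.35. SREBF1 fell by 1.07 and ACACA, a fatty acid synthesis enzyme, by 0.84. SMPDL3A, a phosphodiesterase, rose by 1.07, and APOE, which also stands in this list, is given above.

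Of the 24 SREBP2 target genes, 12 rose, 3 fell and 9 did not pass, with a median of 0.23. MVD, an enzyme of cholesterol synthesis, rose from 26.8 and 30.4 to 54.4 and 57.8 CPM (log2 fold change 0.97, adjusted p = 4.38e-07), and MSMO1, an enzyme of the same route, rose by 0.72. Among the genes that fell was INSIG1, which holds SREBP in the endoplasmic reticulum, with a log2 fold change of -0.32 (-0.20 without the first shUBXN1 library and -0.48 without the second). The list thus moved in both directions.

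Of 18 sterol regulators, 5 rose, 9 fell and 4 did not pass, with a median of -0.14. SREBF2, which encodes SREBP2, had 121.0 and 117.5 CPM in shCon and 115.2 and 122.5 CPM in shUBXN1, so its groups overlapped (adjusted p = 0.960). The lysosomal gene regulators TFEB (3.26 and 2.94 to 5.25 and 5.43 CPM, log2 fold change 0.78, adjusted p = 0.00786, and 0.0625 with DESeq2) and TFE3 (log2 fold change 0.39) rose.

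The neighbourhood of 3 members was read next, over protein-coding genes within 250 kb. Of all genes tested, 28.0% rose and 28.2% fell at an adjusted p under 0.05. Around NPC1 all 6 protein-coding genes within 250 kb were tested, and 2 rose, 3 fell and 1 did not pass. RIOK3, a kinase gene 19.6 kb away, rose with a log2 fold change of 1.04 (adjusted p = 5.49e-08), and TMEM241 rose by 0.59. ANKRD29, at 12.4 kb, fell by 1.41, and LAMA3, a laminin chain gene at 103 kb, fell by 1.89. CABLES1 fell by 0.30, a call lost in 3 alternatives, among them without the second shCon library (adjusted p = 0.109). RMC1, which overlaps NPC1, was the gene that did not pass.

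Around SORT1, 13 of 17 genes were tested, and 3 rose, 7 fell and 3 did not pass. PSMA5, a proteasome subunit gene 1.12 kb away, fell by 0.54 (adjusted p = 2.13e-05). PSRC1 and CELSR2, which lie with SORT1 in the same locus on chromosome 1, went in opposite directions: PSRC1 fell by 0.34 (adjusted p = 0.0173) and CELSR2 rose by 0.33 (adjusted p = 0.0335). The PSRC1 call was lost in 5 of 13 alternatives, among them without the first shCon library (adjusted p = 0.0968) and without the second shUBXN1 library (0.059). The CELSR2 call was lost in 6, among them without the first shUBXN1 library, where the log2 fold change was 0.14, without the first shCon library (adjusted p = 0.117) and without the second (0.0586). AMIGO1, at 106 kb, rose by 2.38 and ATXN7L2 fell by 1.18.

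Around STARD3, 8 of 14 genes were tested, and 3 rose, 3 fell and 2 did not pass. ERBB2, the receptor tyrosine kinase gene 23.7 kb away that is amplified together with STARD3 in some breast cancers, rose with a log2 fold change of 1.93 (adjusted p = 2.08e-09), against -0.45 for STARD3. GRB7 fell by 1.26 and MIEN1 by 0.38, while PGAP3, at 6.92 kb, did not pass (log2 fold change -0.18, adjusted p = 0.218). PGAP3 passed with the GC trend removed (-0.30, adjusted p = 0.0417), and without the second shCon library its value was -0.11. GSDMB, at 240 kb, rose by 2.46.

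The genes whose pattern over the 4 libraries was most like that of NPC1 were found by the Euclidean distance of centred log2 CPM among 11165 protein-coding genes. They were MYO7A (distance 0.0279; 6.04 and 5.96 CPM in shCon, 15.8 and 16.3 CPM in shUBXN1), SULF2 (0.0283; 95.6 and 92.2 CPM, then 242.9 and 259.7 CPM) and RABAC1 (0.0285; 24.6 and 23.8 CPM, then 65.1 and 66.5 CPM). Nearest to SORT1 were ABCA3 (0.0558; 10.3 and 9.32 CPM in shCon, 28.6 and 31.9 CPM in shUBXN1), KLHL15 (0.0561) and PLA2G6 (0.0645). With 4 libraries in 2 groups, likeness is mostly a matter of a like fold change, and none of the 6 is in the lists used here.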

How the data were processed

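MHCC97H cells were measured by RNA-seq in 4 libraries, 2 per group, grouped by the sample labels. The table the authors deposited holds expected counts, without normalization, beside each gene's length. The submitters' processing notes name HISAT2 2.0.4, StringTie 1.3.0 and GRCh37, whereas the study's methods name Hisat2, GRCh38, TPM and limma. The table holds no coordinates, so positions were taken from the GENCODE annotation of GRCh38 by gene ID. The library kit is likewise named differently in the labels (VAHTS) and the methods (TruSeq), and the control is shCon in the labels and shRFP in the methods. Annotation release and strandedness are not given in the sources used here, so genes that overlap another are uncertain. Of 61541 gene IDs, 61369 (99.7%) matched a symbol.

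After rounding of the expected counts, filterByExpr kept 16863 genes, and the quasi-likelihood test of edgeR 4.0.16 (R 4.3.3; glmQLFit, then glmQLFTest) was run on TMM-scaled libraries without a block, which leaves 2 residual degrees of freedom, and p-values were adjusted by Benjamini-Hochberg over every gene tested. The biological coefficient of variation was 0.0711. Standard errors were derived from the log2 fold change and the square root of F. TPM was computed from the deposited counts and gene lengths. The fit was tested on simulated data. Depth of 23373700 to 27380508 counts limits precision chiefly for MYLIP, and 2 libraries per group limit how well the spread is known.

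The members, the gene lists and the tests were chosen with earlier results of these data known, so agreement between lists and members is not independent evidence. Named were all members, UBXN1, in each list up to 2 of the largest rises and 2 of the largest falls past an adjusted p of 0.05 with a mean log2 CPM above 2, further genes whatever their values (ABCA1, INSIG1, LAMP1, SOAT1 and SREBF2 among them), neighbours within 250 kb of NPC1, SORT1 and STARD3, and the 3 nearest patterns to NPC1 and SORT1. Genes overlapping a member's exons were named besides. Some genes that this rule picks are not reported here. Promoter sequences are from RefSeq (GRCh38.p14). SCARB1 had no entry. Alternatives were DESeq2 1.42.0, total count scaling, limma-voom and limma (3.58.1) on log2(TPM + 1), a minimum of 10 counts in every library or no filter at all, a replicate block, a fold change threshold of 1.5, unrounded counts, removal of a GC trend and leaving out each library.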

Additional observations from a re-analysis of the deposited data

How the results depend on the processing

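No member changed direction in 13 alternative fits. The log2 fold change of NPC1 ranged from 1.38 to 1.51 and that of SORT1 from 1.47 to 1.69. Every fit used these same libraries, and the members were chosen with this contrast known, so the stability is no independent evidence. At a fold change threshold of 1.5, 4 members were called higher and 2 lower, with 3201 genes higher and 2435 lower in all, by construction. Over all genes, 1997 were called higher and 1027 lower; 1321 were called higher with at least 10 counts in every library, where fewer genes are tested, and 1028 higher and 524 lower with limma on log2(TPM + 1), for which the cause was not tested. Of 108 counts under the alternatives, 101 stayed within 1.5 times. SREBF2, near 0 throughout, turned positive with at least 10 counts (0.0226), with limma on log2(TPM + 1) (0.0525), with total count scaling (0.0791) and over left-out libraries (-0.0646 to 0.0357). Of the neighbours that did not pass, RMC1, SARS1 and MED1 also crossed 0, while ELAPOR1, SYPL2 and PGAP3 did not. RMC1 crossed it over left-out libraries (-0.0161 to 0.188). SARS1 did so with limma on log2(TPM + 1) (0.00391), total count scaling (0.0294) and left-out libraries (-0.13 to 0.00246). MED1 did so with at least 10 counts (0.00415), limma on log2(TPM + 1) (0.0351), total count scaling (0.0612) and left-out libraries (-0.0828 to 0.0221). Total count scaling moved the median of all genes from 0.016 to 0.101 on the log2 scale. Of 36 pathway genes picked by the rule, 35 kept their direction and 30 their side of the threshold in every alternative; of 39 neighbouring, overlapping and nearest genes, 36 and 28 did. The replicate numbers are shared between groups, but samples with the same number deviated together only weakly (correlation 0.0965 over 11993 genes, 2 pairs). Whether same-numbered samples shared a culture or a day is not given in the labels, and 2 pairs cannot settle it. With the replicate block, 2011 genes were called higher and 1026 lower, 5000 and 5023 passed the adjusted p, and 49 pathway genes rose and 42 fell, against 45 and 39 without it. Low counts limit the lipoprotein genes that were left untested.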
